A study of Arabidopsis thaliana with 12 samples.

Results

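RNA polymerase II near the transcription start site (TSS) was compared with polymerase in the rest of the same gene in uninduced Arabidopsis thaliana seedlings, in the 6 mock chromatin immunoprecipitation libraries of a study with 12 libraries. For each library the deposited counts of a TSS window and of a gene body window were set against each other, gene by gene, for nuclear genes only. All 6 libraries came from 10-day-old seedlings (Columbia ecotype) in the tfIIs-1 (SALK_056755) background, an insertion line for the elongation factor TFIIS, carrying an estradiol-inducible GFP-TFIIS or GFP-TFIISmut transgene that was not induced. The mock labels do not say which of these fusion proteins a library's plants carried, and the mock plants received ethanol for 24 h. Of the 6 libraries, 3 were made with an antibody against polymerase phosphorylated at serine 2 (S2P) of its C-terminal domain and 3 with an antibody against serine 5 phosphorylation (S5P). The other 6 libraries, from plants of the same background given 2 mM estradiol for 24 h, served here as an independent look at the same genes. Wild-type plants and input chromatin were not analysed here, so polymerase and background reads cannot be told apart at low levels.

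Serine 5 phosphorylation is laid down by the kinase of the general factor TFIIH as polymerase leaves the promoter, and serine 2 phosphorylation accumulates as polymerase moves through the gene and recruits factors for processing of the RNA end. Polymerase that halts shortly after initiation, or just downstream of it at the edge of the first nucleosome, gives a peak near the TSS, while polymerase that moves slowly or often through the gene gives signal along the body. TFIIS, whose gene carries the insertion, helps a backtracked polymerase to resume by stimulating cleavage of its own RNA.

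The libraries differed in depth. Over nuclear genes, S2P mock replicates 1, 2 and 3 had 159951, 192044 and 2537034 reads, and the S5P replicates 628487, 362807 and 1277600. Levels below are reads per kilobase of window, scaled to a common library size of these reads (RPKM), listed as S2P replicates 1, 2 and 3, then S5P replicates 1, 2 and 3. Photosystem and light harvesting genes, in use in green seedlings, together stood at 22.4 to 81.2 RPKM over the whole gene, against 7.004 to 10.7 RPKM for 25 seed storage and flower genes and 13.1 RPKM for all genes. The 2 libraries numbered 1 were highest for the photosystem genes, at 73.2 (S2P) and 81.2 RPKM (S5P). The other 4 stood at 22.4 to 36.6 RPKM. The 2 libraries numbered 3 differed from the others in other ways. Both had the lowest TSS share of their antibody, and genes of the early response to touch, cold and elicitors stood at 128 (S2P) and 207 RPKM (S5P) in them, against 28.8 to 50.6 RPKM in the other 4. The labels do not set these 2 libraries apart, and values without them are given beside the counts over both antibodies.

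Where the windows begin and end was read from the files, since no source used here states it. Of 2521 genes of 500 bases or less, 1.19% had a TSS and a body window, against 99.7% of 26302 genes longer than 1000 bases. Reads of the windows together were never fewer than those of the whole gene in any gene and library, and in all they were 5.80% more, so some reads were counted in both windows or beyond the gene. The TSS window is therefore treated as the first 500 bases of the gene and the body as the remainder. Under that reading, the share of reads that an even spread along the gene would put in the TSS window falls with gene length, from 39.6% in genes of 1 to 1.5 kb to 6.33% in genes of 6 kb or more in S2P replicate 1. The measured shares followed the same curve: S2P replicate 1 had 42.3% and 7.50%, and S5P replicate 1 45.1% and 8.29%. Genes were therefore compared given their length, by setting each against the trend of the ratio over gene length.

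**Figure D1:**
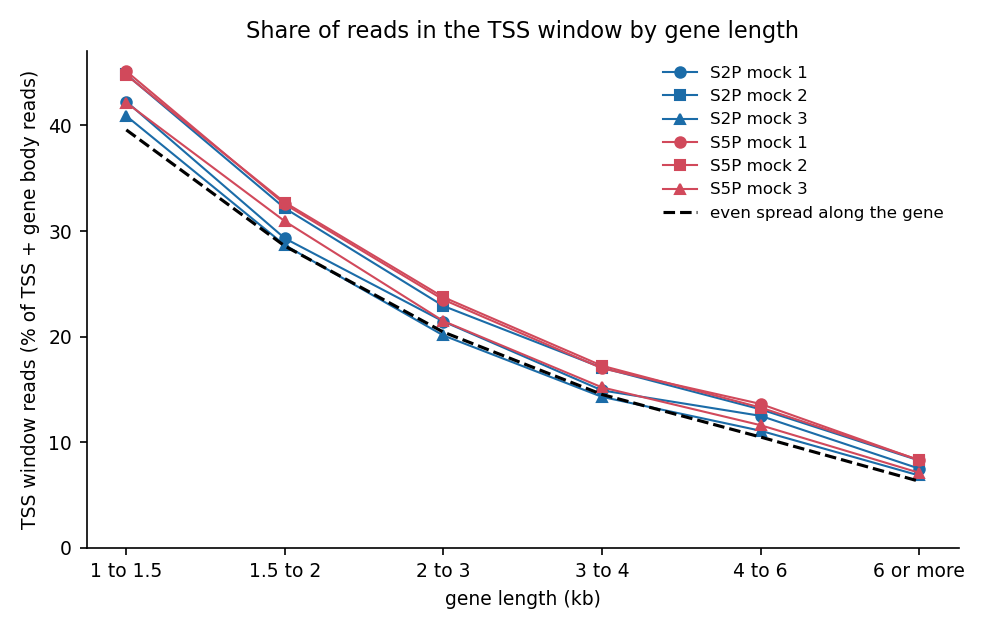
Share of TSS and gene body reads that fell in the TSS window (y axis, percent) for non-overlapping genes in 6 classes of gene length (x axis, kb), 1 line per mock library, with the dashed line giving an even spread of reads along each gene. All 6 libraries follow the dashed line, and the S2P library of replicate 3 lies closest to it.

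As counted, reads per base near the TSS were close to those in the body. Over 19347 genes that overlap no other gene and are 1000 bases or longer, reads per base in the TSS window were 1.08, 1.20 and 1.01 times those in the body for S2P and 1.23, 1.23 and 1.10 times for S5P. The means were 1.10 ± 0.0969 for S2P and 1.19 ± 0.0790 for S5P (SD, n = 3). In these genes the windows together held 4.14% to 4.90% more reads than the whole genes. With these surplus reads taken out of the TSS window alone, the ratio was 0.790 to 0.995 in the 6 libraries, with them taken out of both windows equally 0.935 to 1.16, and with them taken out of the body alone 1.09 to 1.34. Whether the density near the TSS was above or below that of the body therefore cannot be told apart from how these reads were counted. The antibodies overlapped, and the difference of 0.11 on the log2 scale did not exceed the spread between libraries (exact two-sided permutation p = 0.2, where 3 against 3 libraries cannot go below 0.1). S5P was higher in each of the 3 same-numbered pairs of libraries, for which the exact paired sign flip test gave p = 0.25, the smallest that 3 pairs allow. Without any length limit, the TSS window held 20.3% to 22.9% of S2P reads and 21.6% to 23.4% of S5P reads, with the same log2 difference of 0.11 and the same exact permutation p.

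Genes were put in 10 equal classes by their whole gene level in the induced libraries, which were not used for the ratio. In the class with the lowest occupancy, reads per base near the TSS were 1.34 ± 0.101 times those in the body for S2P and 1.30 ± 0.0352 times for S5P (SD, n = 3). In the class with the highest occupancy the ratios were 0.999 ± 0.0995 and 1.14 ± 0.0880 (SD, n = 3). Each of the 6 libraries had a higher ratio in the lowest class than in the highest, also with the surplus reads taken out of either window. Between these classes the ratio did not fall steadily: in S5P replicate 2 it was 1.30 in the lowest class, 1.20 in the sixth and 1.29 in the ninth. The lowest class lies at or under 3.47 RPKM in the induced libraries, below the seed and flower genes, and the part of background reads in its ratio was not tested.

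**Figure D2:**
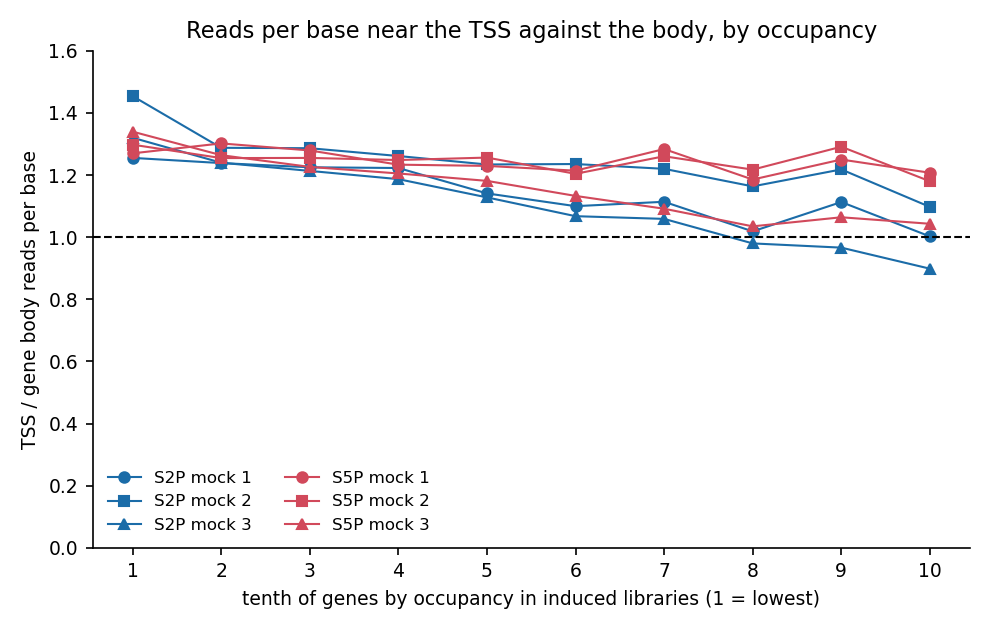
Reads per base in the TSS window divided by reads per base in the gene body (y axis) for genes in 10 classes of whole gene occupancy in the induced libraries (x axis, 1 is the lowest), 1 line per mock library. The dashed line marks an equal density; every line ends lower in the highest class than it starts in the lowest.

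The ratio of single genes was tested with edgeR's quasi-likelihood test, with the library as a block, and a gene was called where its Benjamini-Hochberg adjusted p over all genes lay under 0.05. Without regard to length, 5257 of 20048 genes (26.2%) had a TSS to body ratio above that of the typical gene and 4248 (21.2%) a ratio below it. Each antibody had its own window term in this fit of all 6 libraries. These terms called 33.3% (S2P, 6682 genes) and 31.4% (S5P, 6288 genes) of these genes. The S2P calls became 1300 of 13920 genes tested without S2P mock replicate 3. The S5P calls became 3198 of 14689 without S5P mock replicate 1 and 2920 of 13940 without S5P mock replicate 3. Given gene length, 2482 of 20022 genes (12.4%) leaned to the TSS and 2048 (10.2%) to the body, and the typical gene had a log2 ratio of -0.05. Of those called, 1989 on the TSS side and 1494 on the body side differed by at least 2 times from other genes of their length. Leaving out S2P mock replicate 3 gave 1831 calls among 13907 genes tested, in place of 4530 among 20022. Leaving out S5P mock replicate 3 gave 2915 among 13927. Leaving out both gave 822 on the TSS side and 623 on the body side among 7136 genes that then had enough reads. Without regard to length, the total of 9505 became 3593 of 13920 genes tested without S2P mock replicate 3. It became 6122 of 14689 without S5P mock replicate 1, 5513 of 13940 without S5P mock replicate 3 and 2567 of 7141 without both replicates 3.

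Given length, the S2P term placed 1783 genes (8.91%) on the TSS side and 1208 (6.03%) on the body side. The S5P term placed 1550 (7.74%) and 788 (3.94%). Both terms come from the same fit and share its estimate of the spread, so they are not separate tests. Of the genes called, 1721 were called in both antibodies, all in the same direction, which is 57.5% of the S2P calls and 73.6% of the S5P calls. The S2P total of 2991 became 744 of 13907 genes tested without S2P mock replicate 3. The S5P total of 2338 became 1270 of 14675 without S5P mock replicate 1. Without S5P mock replicate 3 it became 1054 on the TSS side and 441 on the body side, of 13927. A direct test of the difference between the antibodies called 0 of 20048 genes in edgeR, where 683 had a raw, unadjusted p below 0.05. Neither limma voom nor DESeq2 called any (0 each). The smallest p belonged to TGG3 (AT5G48375), with a log2 difference of -2.91 (SE 0.69, adjusted p = 0.459 in edgeR), and to AT5G01390, with -2.03 (SE 0.53, adjusted p = 1). Neither passed.

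The genes kept their side in the induced libraries, which shared no reads with the mock libraries. Of 2449 TSS-side genes that could be tested there, 2386 (97.4%) again had a positive ratio and 1688 were called. Of 2034 body-side genes, 1976 (97.1%) again had a negative ratio and 1073 were called. None was called in the opposite direction, and the shares among uncalled genes were 68.5% for the same sign. With the shallowest induced library of each antibody left out, 1444 and 808 were called and none in the opposite direction.

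**Figure D3:**
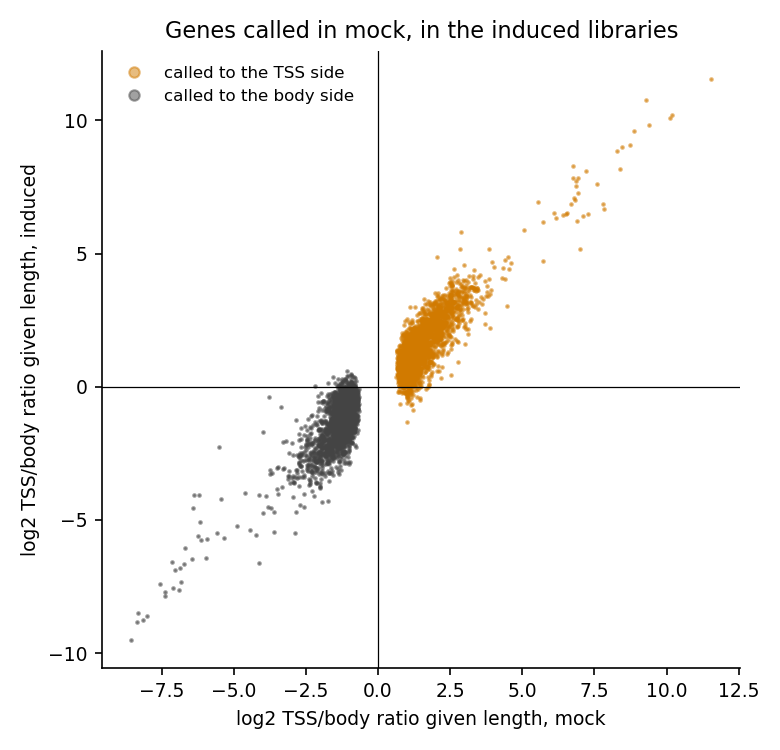
Each point is a gene called in the mock libraries, with its log2 TSS to body ratio given gene length in mock (x axis) and in the induced libraries (y axis). Orange points were called to the TSS side and grey points to the body side in mock; 97.4% and 97.1% keep their sign, and none of them was called in the opposite direction in the induced libraries.

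Overlapping genes filled the top of the ranking. Ranked by the size of the log2 ratio less 2 standard errors, the first 12 genes on the TSS side all overlapped another annotated gene and had 0 body reads, and 10 of the first 12 on the body side overlapped one and had 0 TSS reads. HTSeq, which the submitters' processing notes name, by default leaves out reads that fall in more than 1 gene, so the direction of an overlapping gene is uncertain. Among overlapping genes 14.6% leaned to the TSS and 12.6% to the body, against 10.7% and 8.26% of genes with no neighbour within 500 bases. Long noncoding RNA genes, of which 59 of 84 (70.2%) were on the TSS side, had no member free of neighbours. Examples at the extremes were UBQ6 (AT2G47110), a ubiquitin fusion gene, with 125 TSS and 0 body reads, the germin-like gene GER1 (AT1G72610), with 194 and 0, and the microRNA gene MIR824 (AT4G24415), with 0 and 140. The leading genes below were therefore ranked among the 5112 tested genes with no neighbour within 500 bases. In a fit of these genes alone, 479 (9.37%) leaned to the TSS and 454 (8.88%) to the body. The S2P term called 11.2% of them (6.3% TSS, 4.93% body) and the S5P term 9.66% (6.12% TSS, 3.54% body). The total of 933 became 421 of 3277 genes tested without S2P mock replicate 3 and 333 of 1579 without both replicates 3. In the induced libraries 461 of 471 and 441 of 448 kept their sign.

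On the TSS side the 12 leading genes had log2 ratios of 3.17 to 5.70 against genes of their length, and several encode regulators. EMF1 (AT5G11530), a plant-specific Polycomb component that keeps flower genes silent in the seedling, had 200, 115, 124, 226, 154 and 61.1 RPKM in the TSS window. In its body, 5258 bases long, it had 8.32, 12.9, 12.5, 12.1, 12.1 and 11.9 RPKM. Every library was higher near the TSS than in the body, and the body level was uniform and near that of seed and flower genes. The ratio was 9.41 times that of genes of its length (log2 3.23, SE 0.25, edgeR adjusted p = 2.71e-34).

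AGL31 (AT5G65050), also known as MAF2, is a MADS-box repressor of flowering and a relative of FLC. In its TSS window the level was 488, 375, 78.8, 185, 336 and 89.2 RPKM, and in the body 5.09, 14.1, 19.5, 13.4, 14.2 and 15.5 RPKM. Both windows separated completely, and the 2 libraries of replicate 3 were the lowest near the TSS (log2 ratio 3.36, SE 0.24). AGL31 lies among similar MAF genes, so reads that copies share may be missing from it. HWS (AT3G61590), an F-box protein that limits growth of leaf and floral organs and acts on microRNAs, had 250, 125, 93.0, 204, 176 and 121 RPKM near the TSS. Its body stood at 5.41, 4.5025, 14.5, 18.6, 8.34 and 17.3 RPKM, below the TSS window in each library (log2 ratio 3.28, SE 0.26).

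The remaining TSS-side leaders with names were SAUR23 (AT5G18060), CRK (AT4G01710), ARF23 (AT1G43950), NAC067 (AT4G01520) and JAZ8 (AT1G30135). SAUR23, a small auxin-induced gene, had 116 TSS reads and 1 body read, but its body spans 310 bases and its family has close copies, so the fitted ratio is uncertain. CRK, known as CROOKED or ARPC5, is a subunit of the ARP2/3 complex that branches actin filaments. It had 288, 83.3, 75.7, 226, 110 and 86.1 RPKM near the TSS and 0 to 12.8 RPKM in the body (log2 ratio 3.82, SE 0.32). ARF23, an auxin response factor of the cluster on its chromosome, had a log2 ratio of 3.78 (SE 0.36), NAC067, a NAC transcription factor, 3.28 (SE 0.29), and JAZ8, a repressor of jasmonate responses, 3.36 (SE 0.40). All 8 named genes and the unnamed AT2G22122, AT1G65510, AT2G16586 and AT3G25030, with log2 ratios of 3.17 to 4.34, leaned the same way in the induced libraries, where values ran from 2.19 to 5.17.

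On the body side the 12 leaders included 3 loci that are not protein-coding: a transcribed pseudogene (AT5G28280), a noncoding RNA gene (AT4G03935) and a pseudogene (AT2G36402), with log2 ratios of -3.86, -3.61 and -3.60. Of the protein-coding genes, NIT1 (AT3G44310), a nitrilase that hydrolyses nitriles and can form auxin, had 62.5, 20.8, 29.2, 47.7, 38.6 and 43.8 RPKM near the TSS. In the body it had 339, 201, 163, 200, 201 and 148 RPKM. The windows did not overlap, with a log2 ratio of -2.45 (SE 0.25, edgeR adjusted p = 1.28e-19). NIT1 lies in a cluster of similar nitrilase genes, so shared reads may be missing.

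AIR12 (AT3G07390), an auxin-induced cytochrome b protein at the outer face of the plasma membrane, had 50.02, 20.8, 25.2, 25.5, 33.1 and 31.3 RPKM near the TSS and 198, 120, 97.4, 112, 115 and 116 RPKM in the body. Its body was higher in each library (log2 ratio -2.30, SE 0.26). AT2G16405 had 25 TSS reads and 1074 body reads over the 6 libraries, with a log2 ratio of -2.87 (SE 0.33). AT4G00300, AT1G78640, AT1G68820, AT1G75760, AT2G02770 and AT1G35510 had log2 ratios of -3.35 to -2.65. In the induced libraries all 12 body-side genes kept a negative ratio, from -4.50 to -2.10.

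**Figure D4:**
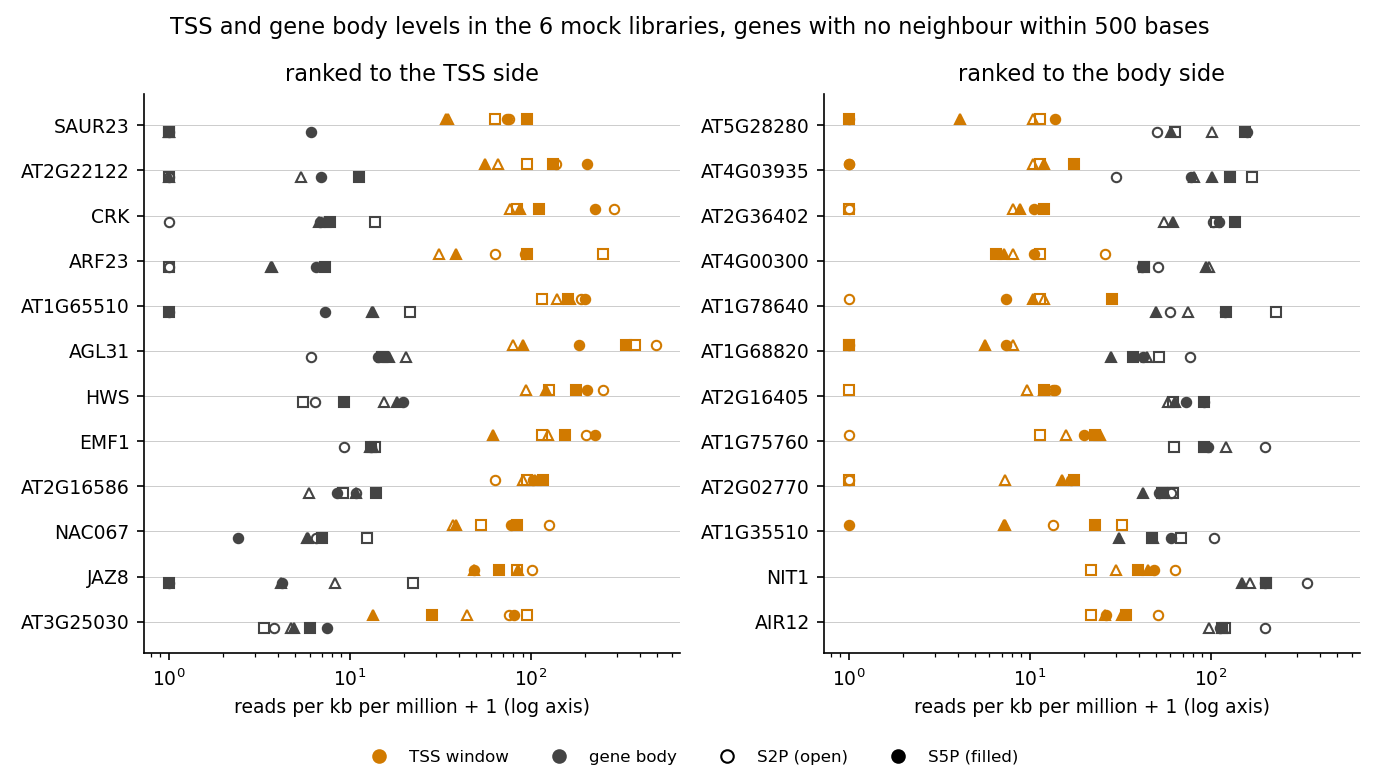
Level in the TSS window (orange) and in the gene body (grey) of the 12 leading genes of each side with no neighbour within 500 bases, in RPKM plus 1 on a log axis. Open symbols are S2P and filled symbols S5P; circles, squares and triangles are replicates 1, 2 and 3. The left panel shows the TSS side, where orange lies above grey in every library, and the right panel the body side, where grey lies above orange. The genes were picked for having 1 sign in every library with at least 10 reads.

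TFIIS itself (AT2G38560) was not on either side. It had 71 TSS and 221 body reads in the mock libraries and a log2 ratio of 0.09 (SE 0.26, edgeR adjusted p = 0.854). TFIIS overlaps another gene, and its ratio in the induced libraries was -1.16 (SE 0.44). Mock and induced plants both carry the insertion in this gene and a TFIIS transgene. The part of transgene reads was not tested in either ratio.

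Gene functions were described with 28 lists, holding 905 tested genes, of which 123 leaned to the TSS and 81 to the body. No list was tested as a set, and each is given by its counts and its median log2 ratio, beside 12.4%, 10.2% and -0.05 for all genes tested given length. Of 14188 genes that overlap no other, 10.9% leaned to the TSS and 9.15% to the body. Up to 2 called members a side per list were picked by the ranking used above. Their same sign in every mock library with at least 10 reads is therefore part of the selection. Of 20 SR splicing factors, which bind exonic signals and help choose splice sites, 7 leaned to the body and 0 to the TSS, with a median of -0.19. Among the 14 that overlap no gene, 6 leaned to the body and the median was -0.36. RS31 (AT3G61860) had 0, 10.4, 20.5, 15.9, 0 and 20.4 RPKM near the TSS and 139, 76.2, 73.7, 74.99, 97.1 and 67.0 RPKM in the body. It was below in the TSS window in every library (log2 ratio -2.32, SE 0.30, edgeR adjusted p = 1.71e-13). SR30 (AT1G09140), which controls splicing of its own RNA and of other SR genes, had a log2 ratio of -1.72 (SE 0.30). RSZ21, SCL28, SR45, RS41 and RSZ22a had -1.56 to -0.82. Summed over the list, reads per base near the TSS were 0.382 to 0.865 times those in the body, below the range over all genes in all 6 libraries.

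Of 30 cytosolic ribosomal protein genes, 4 leaned to the body and 0 to the TSS, with a median of -0.35. RPL23AA (AT2G39460), of the large subunit, had a log2 ratio of -2.63 (SE 0.33) and RPS15A (AT1G07770), of the small subunit, -2.48 (SE 0.40). ATL5 (AT3G25520), the ribosomal protein L5 gene with most reads in the list, did not pass (-0.22, SE 0.26). Summed over 19 genes, the per base ratio was 0.757 ± 0.0517 for S2P and 0.928 ± 0.0431 for S5P (SD, n = 3), below that of all genes in each library. Kinesins and myosins, the motors of microtubules and actin, had 5 of 25 on the body side and 0 on the TSS side, with a median of -0.16. They were the myosins ATM2 (AT5G54280, -1.89, SE 0.41) and MYA2 (AT5G43900, -1.35, SE 0.38) and the kinesins KAC2 (AT5G65460), ATK2 and POK1, with -1.61, -1.41 and -1.22. ATM2 and MYA2 overlap other genes. Among the 19 tested members that overlap no gene, 2 (10.5%) were called to the body side and 0 to the TSS side. Their median was -0.15, and 9.15% of all genes without overlap were on the body side.

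Of the actin and tubulin genes, 3 of 22 leaned to the body and 1 to the TSS. ACT2 (AT3G18780) and TUB2 (AT5G62690) had log2 ratios of -0.98 and -1.26, TUB4 (AT5G44340) had 0.90, and ACT7 (AT5G09810), the actin gene with most reads, did not pass (-0.14, SE 0.25). Photosystem and light harvesting genes, which encode the proteins that capture light, had 9 of 39 on the body side and 3 on the TSS side, with a median of -0.12. Summed over 21 members, the per base ratio was 1.19, 1.85 and 0.771 for S2P and 1.47, 1.39 and 0.887 for S5P, above that of all genes in the 4 libraries of replicates 1 and 2 and below it in both libraries of replicate 3. LHCA3 (AT1G61520), an antenna protein of photosystem I, had a log2 ratio of -1.29 (SE 0.27). LHCB2.3 (AT3G27690), an antenna protein of photosystem II with 559 body and 57 TSS reads, had -2.36 (SE 0.28), and it overlaps a gene. CAB3 (AT1G29910) and CAB2 (AT1G29920), adjacent and near-identical antenna genes, had 1.75 (SE 0.27) and 1.74 (SE 0.28), so reads that map to both may be missing. Their TSS windows held 513 and 300 RPKM in S2P replicate 1 but 55.2 and 26.01 RPKM in S2P replicate 3.

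Of 37 proteasome genes, whose products degrade tagged proteins, 5 leaned to the body and 3 to the TSS, with a median of -0.18. RPN1A (AT2G20580), a scaffold of the regulatory particle, had 12.5, 0, 8.67, 15.9, 22.1 and 12.5 RPKM near the TSS and 84.5, 45.3, 52.2, 51.2, 45.4 and 40.8 RPKM in the body. All libraries had the higher level in the body (log2 ratio -2.25, SE 0.33). RPT1A (AT1G53750), an ATPase of the same particle, had -1.06 (SE 0.28). PAE2 (AT3G14290), a subunit of the core particle, went the other way with 2.00 (SE 0.25), as did the ATPase RPT5B (AT1G09100) with 1.31 (SE 0.27), which overlaps a gene.

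The clock genes had 2 of 12 on the body side and 1 on the TSS side. PRR5 (AT5G24470), a repressor of the morning genes, had a log2 ratio of -1.52 (SE 0.29) and PCL1 (AT3G46640), known as LUX, of the evening complex, 1.88 (SE 0.25). PCL1 overlaps a gene. TOC1 (AT5G61380), the clock gene with most reads, did not pass (-0.04, SE 0.28). Translation factors had 3 of 19 on the TSS side and 2 on the body side, heat shock proteins and chaperones 3 and 1 of 20, and histones 0 and 1 of 22. EIF4B1 (AT3G26400) and TIF3B1 (AT5G27640), initiation factors that both overlap a gene, had 1.66 and 1.11. The factors eEF-1Bb1 (AT1G30230) and EIF3G1 (AT3G11400) had -0.88 and -0.78, while EIF4A1 (AT3G13920) did not pass (-0.22). HSP81-2 (AT5G56030), a cytosolic HSP90 with near-identical copies, had 1.66 (SE 0.25) and HSP70 (AT3G12580) 1.00 (SE 0.31). BIP3 (AT1G09080), a chaperone of the endoplasmic reticulum, had -1.38 (SE 0.33), and HSC70-1 (AT5G02500) did not pass (-0.23). The histone gene with most reads, the linker histone relative HON4 (AT3G18035), did not pass (0.23).

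MYB factors, which control differentiation and metabolism, had 12 of 62 on the TSS side and 4 on the body side, with a median of 0.31, and with 49 non-overlapping members 12 and 3 with a median of 0.42. MYB3R-4 (AT5G11510), an activator of genes of mitosis, had 125, 167, 188, 85.9, 88.2 and 75.1 RPKM near the TSS and 9.44, 8.98, 14.03, 10.6, 8.32 and 7.93 RPKM in the body. The TSS window was higher in each library (log2 ratio 3.36, SE 0.26, edgeR adjusted p = 3.20e-35). MYB120 (AT5G55020), known for its role in pollen tubes, had 2.80 (SE 0.28), while MYB47 (AT1G18710) and MYB55 (AT4G01680) had -1.38 and -0.97, the latter 0.022 without regard to length. MYB73 (AT4G37260), the member with most reads, did not pass (-0.56). Summed over 96 members, the per base ratio was 1.31 to 1.57 and exceeded the ratio of all genes in every library. The list stood at 9.76 to 11.8 RPKM over the whole gene, and the part of occupancy in this ratio was not tested.

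The Aux/IAA and SAUR genes, the early targets of auxin, had 6 of 19 tested on the TSS side and 1 on the body side, with a median of 0.34. Among 13 members without overlap, 3 were called to the TSS side and 0 to the body side, with a median of 0.23. IAA20 (AT2G46990), a repressor that lacks the degron of its family, had 102 TSS and 15 body reads (log2 ratio 3.63, SE 0.39), and IAA9 (AT5G65670), a repressor that shapes leaves, leaned to the body (-0.997, SE 0.30) and overlaps a gene. IAA7 (AT3G23050), the member with most reads, did not pass (0.48). UDP-glycosyltransferases, which attach sugars to small molecules, had 12 of 47 on the TSS side and 2 on the body side, with a median of 0.30. Without overlapping members the counts were 6 and 1 of 31, with a median of 0.20. UGT72E1 (AT3G50740), which glycosylates lignin precursors, had 225, 72.9, 56.8, 277, 138 and 95.5 RPKM near the TSS and 62.6, 13.9, 21.3, 20.2, 18.4 and 27.2 RPKM in the body. The TSS window was higher in each library (log2 ratio 2.10, SE 0.25). UGT72B3 (AT1G01420) had 2.33, and UGT85A2 (AT1G22360) and UGT73B3 (AT4G34131) had -1.37 and -0.82, the latter 0.018 without regard to length.

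Cytochromes P450 had 21 of 153 on the TSS side and 9 on the body side, with a median of 0.13. Without overlapping members the counts were 13 and 5 of 124, with a median of 0.17. CYP79C1 (AT1G79370) and CYP706A4 (AT4G12300) had log2 ratios of 2.58 and 2.25, and CYP81H1 (AT4G37310) and CYP94B2 (AT3G01900) -2.30 and -2.13. Glutathione transferases, which conjugate toxic compounds, had 7 of 35 and 5: GSTU11 (AT1G69930) had 2.10, GSTU1 (AT2G29490) -2.10 and GSTF8 (AT2G47730) -3.73, and GSTF8 overlaps a gene. GSTF10 (AT2G30870), with most reads there, did not pass (-0.66). Glucosinolate and flavonoid genes had 4 of 17 on the TSS side and 0 on the body side. BCAT4 (AT3G19710), at the start of methionine chain elongation for glucosinolates, had 2.10 (SE 0.32) and TT5 (AT3G55120), chalcone isomerase, 0.99 (SE 0.33), while CYP83B1 (AT4G31500), with most reads, did not pass (-0.13).

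Pentatricopeptide repeat proteins, which edit and process organelle RNA, had 10 of 40 on the TSS side and 1 on the body side, with a median of 0.49. Only 4 of the 10 overlap no gene, namely MEF9, MEF18, CRR2 and OTP86. Among the 26 members without overlap, 3 were called to the TSS side and 0 to the body side, and the median was 0.48. MEF8S (AT4G32450) and OTP81 (AT2G29760) had 2.47 and 1.77 and both overlap a gene. GUN1 (AT2G31400), which signals from chloroplast to nucleus and had most reads, did not pass (0.13). Summed over those 26, the per base ratio was 1.27 to 1.503, above that of all genes in each library. The whole list stood at 11.3 to 14.1 RPKM over the whole gene, and here too the part of occupancy was not tested.

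Receptor kinases had 7 of 69 on the TSS side and 1 on the body side, with a median of 0.25. Without overlapping members the counts were 3 (5.66%) and 1 of 53, with a median of 0.19. Of all genes without overlap, 10.9% were on the TSS side. CRK14 (AT4G23220) and LECRKA4.3 (AT5G01560) had 1.43 and 1.03, of which LECRKA4.3 overlaps a gene and became -0.075 without S2P mock replicate 3. AT1G15530 had -1.47, and CRK40 (AT4G04570), with most reads, did not pass (0.58). Disease resistance genes of the NB-LRR class had 3 of 21 and 1: WRR4 (AT1G56510), for resistance to white rust, had 0.94 (SE 0.28), or -0.30 without regard to length, which did not pass, and RPP4 (AT4G16860), for resistance to downy mildew, -1.44 (SE 0.32). RPP4 lies in a cluster of similar genes. Carbon fixation genes had 3 of 18 on the TSS side and 2 on the body side. RBCS1B (AT5G38430), a Rubisco small subunit with close copies, had 1.72 and PRK (AT1G32060), phosphoribulokinase, 1.46, whereas RCA (AT2G39730), Rubisco activase, had -1.62 and AT3G60750 -0.90. PRK and RCA overlap genes. The list's median of 0.24 became -0.06 without overlapping members.

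**Figure D5:**
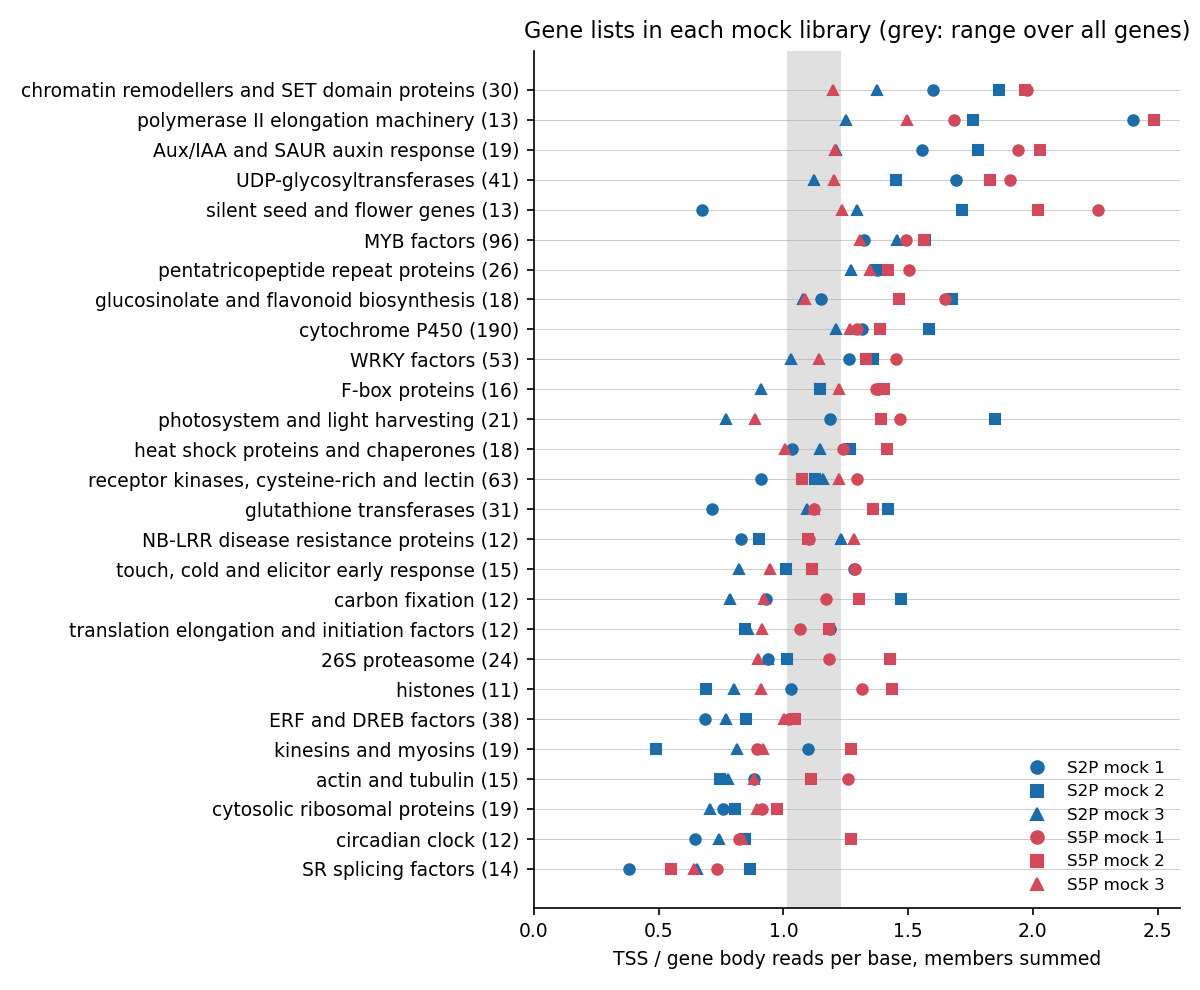
Reads per base in the TSS window divided by reads per base in the gene body, summed over the non-overlapping members of each list (x axis), for each list with its number of genes (y axis). Each point is 1 mock library, blue for S2P and red for S5P, with circles, squares and triangles for replicates 1, 2 and 3, and the grey band spans 1.01 to 1.23, the range over all genes. SR splicing factors and cytosolic ribosomal proteins lie left of the band in all 6 libraries. MYB factors, pentatricopeptide repeat proteins and elongation factors of polymerase II lie right of it in all 6.

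The libraries of replicate 3 had the lowest ratio in many lists. In S5P, replicate 3 had the lowest ratio in 21 of 27 lists, and in S2P it did in 13 of 27. Touch, cold and elicitor genes were where these libraries differed most in level. SZF1 (AT3G55980), a zinc finger gene induced by salt and elicitors, had 78.4, 56.0, 330, 78.4, 76.5 and 464 RPKM in the body and 50.02, 31.2, 159, 57.3, 60.6 and 294 RPKM near the TSS. The body was higher in every library (log2 ratio -0.80, SE 0.25, edgeR adjusted p = 0.009), but without both replicates 3 the value of -0.59 did not pass. Its relative CZF1 (AT2G40140) had -0.68 (SE 0.26), and without those libraries -0.72, which did not pass. TCH2 (AT5G37770), a calmodulin-like gene induced by touch, had 1.87 (SE 0.28) and overlaps a gene. In all, 2 of 23 members leaned each way, with a median of 0.17, or -0.01 among the 15 that overlap no gene.

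The ERF and DREB factors, which act in ethylene, cold and drought responses, had 5 of 32 on the TSS side and 6 on the body side, with a median of -0.13. RAP2.4 (AT1G78080), a factor of light and ethylene responses, had 113, 72.9, 140, 115, 82.7 and 235 RPKM near the TSS and 382, 216, 513, 365, 239 and 591 RPKM in the body. Its body was higher in every library (log2 ratio -1.74, SE 0.23, edgeR adjusted p = 1.44e-12). ERF3 (AT1G50640), a repressor, had -1.26 (SE 0.24). ERF15 (AT2G31230) and DREB19 (AT2G38340), the latter overlapping a gene, had 1.17 and 1.39. WRKY factors, regulators of defence, had 5 of 52 and 3, with a median of 0.19. WRKY6 (AT1G62300), which acts in senescence and phosphate response, had 0.77 (SE 0.26), WRKY15 (AT2G23320) -0.71 (SE 0.27, or 0.51 without regard to length, which did not pass) and WRKY4 (AT1G13960) -0.80 (SE 0.31), and each of the 3 was lost without both replicates 3. WRKY33 (AT2G38470), the member with most reads, did not pass (-0.27).

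Of 15 genes for factors that carry polymerase II through genes, 3 leaned to the TSS and 1 to the body, with a median of 0.19. Summed over 13 members, the per base ratio was 2.40, 1.76 and 1.25 for S2P and 1.68, 2.48 and 1.49 for S5P, above that of all genes in every library. These sums held 34, 35 and 282 TSS reads for S2P and 112, 83 and 178 for S5P. The part of single genes in them, such as SPT42, was not tested, so the ratios may not describe the list as a whole. SPT42 (AT5G63670), a homologue of SPT4 that clamps polymerase onto DNA together with SPT5, had 213, 93.7, 46.5, 165, 138 and 53.2 RPKM near the TSS and 10.7, 8.87, 10.1, 17.6, 7.04 and 17.3 RPKM in the body. The TSS window was higher in all libraries, with the replicate 3 libraries lowest (log2 ratio 2.61, SE 0.26). NRPB1 (AT4G35800), the largest subunit of polymerase II and the one that carries the phosphorylated domain, had 1.19 (SE 0.25), or -0.40 without regard to length, which did not pass. GTB1 (AT1G65440), a homologue of the histone chaperone SPT6 in yeast, had -1.63 (SE 0.36).

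Chromatin remodellers and SET domain proteins, which move nucleosomes and methylate histones, had 4 of 36 on the TSS side and 3 on the body side. EDA16 (AT1G61140), an SNF2 helicase relative, had 213, 125, 84.4, 194, 143 and 59.5 RPKM near the TSS and 14.1 to 19.9 RPKM in the body (log2 ratio 2.57, SE 0.24). ATCHR12 (AT3G06010), a remodeller that restrains growth, had 1.97 and SDG2 (AT4G15180), the main methyltransferase for lysine 4 of histone H3, 1.24 (SE 0.26). Without regard to length SDG2 was called to the body instead (log2 ratio -0.94, edgeR adjusted p = 0.000544). CHR1 (AT5G66750), known as DDM1, which maintains DNA methylation, had -1.66 (SE 0.35) and ASHH3 (AT2G44150) -1.22 (SE 0.36). Summed over 30 members, the per base ratio was 1.37 to 1.86 for S2P and 1.20 to 1.98 for S5P. These sums held 40 (S2P replicate 1) to 543 TSS reads (S2P replicate 3), and the part of single genes in them, such as EDA16, was not tested.

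Of the 25 seed storage and flower genes, 13 had enough reads, 5 were on the TSS side and 0 on the body side, with a median of 0.72. They were PAB5 (AT1G71770), STK (AT4G09960), LEC1, FUS3 and OLEO2, of which LEC1 and FUS3 overlap no gene. Among 9 tested members without overlap, 2 were called to the TSS side, with a median of 0.47. STK, a MADS-box gene of ovule identity, had 25.01, 52.1, 25.2, 63.6, 82.7 and 25.05 RPKM near the TSS and 5.68 to 14.4 RPKM in the body. SHP1 (AT3G58780), with most reads, did not pass (-0.71). In the S2P library of replicate 1 the list's summed ratio was 0.674, the lowest of the 6, but it rests on 5 TSS and 34 body reads. In the others it was 1.23 to 2.26, from 18 (S2P replicate 2) to 145 TSS reads (S2P replicate 3). Of the F-box genes, 1 of 15 was called, VFB2 (AT3G50080), with 1.92 (SE 0.25), and AT1G80440, with most reads, did not pass (-0.06). Of 7 SADHU retroposon relatives, 1 was called, SADHU6-1 (AT3G02515), which had 28 TSS and 223 body reads (log2 ratio -3.59, SE 0.28).

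The median length was 2489.5 bases on the TSS side, 2451.5 bases on the body side and 2683 bases among uncalled genes. The median level in the induced libraries, in RPKM over the whole gene, was 13.2, 20.8 and 10.3. Of the 1935 genes without overlap in the lowest class of level, 498 (25.7%) had enough reads to be tested. In the highest class 1918 of 1935 (99.1%) did. Of those tested, 6.02% were called on the TSS side and 1.81% on the body side in the lowest class. The shares of tested genes in the highest class were 18.2% and 27.6%. The error falls as reads rise, and the part of depth in these shares was not tested. The median log2 ratio of the tested genes went from 0.20 in the lowest class to -0.26 in the highest. Of 1391 pseudogenes 5.61% were called on the TSS side and 2.95% on the body side, and of 18333 protein-coding genes 12.6% and 10.7%. In the libraries with at least 10 reads for a gene, 83.6% of the genes called on either side had the same sign in every such library. The calls were made from these same libraries, so a high share follows in part from the calling. No share was computed for uncalled genes.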

How the data were processed

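The data were chromatin immunoprecipitation sequencing reads counted in a TSS window, a gene body window and the whole gene. The authors deposited raw read counts per gene and window for each library. Trimmomatic, HTSeq and the build TAIR10 are named per the submitters' processing notes; neither the aligner nor the bounds of the windows is named there. TSS and body counts of the 6 mock libraries entered 1 fit in edgeR 4.0.16 (R 4.3.3), with the library as a block, a window term per antibody and TMM scaling within each window, so ratios are relative to the typical gene. Genes needed 10 TSS plus body reads in at least 3 libraries, and calls an adjusted p under 0.05. Standard errors were computed from the fitted value and its F statistic. For the fit given length, a lowess trend of the ratio on gene length was an offset. Lengths and neighbours were taken from RefSeq's table of genes (assembly TAIR10.1), named differently from the files' build, so no coordinates are printed. DESeq2 1.42.0 and limma 3.58.1 were alternatives, and the fit was tested on simulated data.

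Genes named were those ranked by the size of the log2 ratio less 2 SE, among called genes with 1 sign in every library with at least 10 reads (at least 4 libraries): 12 a side, the same ranking among genes with no neighbour, up to 2 a side per list, and each list's member with most reads. The comparison, the lists and the members were chosen with earlier results of these data known. After their values were seen, 7 genes whose symbols matched a list but whose products do not belong to it were taken out (2 aminotransferase or sterol acyltransferase genes, 3 chloroplast RPL12 genes, of which RPL12-A had been called to the body, and 2 calcium-dependent kinase relatives). Replicate numbers were taken to pair the antibodies: deviations of whole gene counts correlated at 0.418, 0.496 and 0.736 for same-numbered libraries over 3241 genes, and at -0.523 to 0.062 for others. Whether replicates are separate batches of plants is not in the labels, so the p-values cover the variation among these libraries only, possibly technical. Reads are not independent molecules. Organelle genes were left out by keeping the 5 nuclear chromosomes. Promoter sequences and motifs were not used here.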

Additional observations from a re-analysis of the deposited data

How the results depend on the processing

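Of 104 called genes that are named, 97 kept their sign and 67 their call under every alternative that tested them. The ranked ones among them were picked for 1 sign in every mock library with at least 10 reads and for a large ratio. Their kept signs are therefore largely fixed by that selection and say little about other called genes. Of 121 named genes, some alternatives tested fewer: 21 with no neighbour within 500 bases, 66 without overlap, 71 under the strict filter, 96 with window lengths as offsets and 99 without both replicates 3. Without regard to length, the 9505 calls over both antibodies became 15851 with no filter on low counts and 2291 with 10 reads required in every library (3470 genes), the S2P total of 6682 became 12029 and 1695, and the S5P total of 6288 became 10513 and 1729. DESeq2 gave 3376 for S2P and 3954 for S5P there. Given length, the strict filter left 3467 genes and gave 1312 calls for both antibodies, 978 for S2P and 883 for S5P. DESeq2 gave 2576, 1337 and 1323 of 20022 genes. S2P had 1969 calls without the library block. Fewer genes were tested with no neighbour within 500 bases (933, 574 and 494 calls) and without overlapping genes (2839 for both). Among genes with no neighbour the strict filter gave 287 of 759 genes tested and DESeq2 586 of 5112. Leaving out replicate 3 of both antibodies, chosen after seeing the data, gave 2567, 1112 and 2134 calls among 7141 genes without regard to length. Given length it gave 1445, 750 and 1249 among 7136 genes, and 333 among 1579 genes with no neighbour. It gave 1 call for the antibody difference, AT5G01390 at -7.09 (SE 1.55, edgeR adjusted p = 0.0329). Leaving out 1 library at a time gave 3593 to 9626, 1300 to 6601 and 2920 to 6594 calls without regard to length, 1831 to 4602, 744 to 2905 and 1270 to 2523 given length, 421 to 935 with no neighbour, 0 for the antibody difference, and 0.07 to 0.17 for the log2 difference in TSS share. That difference of 0.11 was -0.024 as a median over genes with 1 read added (exact permutation p = 0.9). The mean ratio of reads per base over the 6 libraries, 1.14 as counted, was 0.911 with the surplus reads taken out of the TSS window and 1.24 with them taken out of the body, both chosen after seeing the data. Without length the log2 ratio changed sign in WRKY15 (0.51), MYB55 (0.022), NRPB1 (-0.40), WRR4 (-0.30), SDG2 (-0.94) and UGT73B3 (0.018), and in LECRKA4.3 without S2P mock replicate 3 (-0.075, and up to 1.18 with another library left out). The cause of these changes was not tested. Deviations of the TSS to body ratio itself correlated at 0.162, 0.041 and 0.279 for same-numbered libraries. With the replicate block the antibody difference had 0 calls, the TSS share difference stayed at 0.11 (exact sign flip p = 0.25, the smallest possible), and with the antibodies summed the block gave 9322 calls, 4209 given length and 810 with no neighbour, against 8260, 3515 and 657 with no block, and no call on the antibody difference changed. The 2 shallowest S2P libraries limit what single genes show for S2P.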
